A study of Drosophila melanogaster with 14 samples.

Results

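The Antennapedia complex is the cluster of Hox genes on chromosome arm 3R of Drosophila melanogaster, and its insulator protein peaks are described here. Members were all peaks of the 12 deposited lists that overlapped the window 3R:2480001-2840000, in Release 5 coordinates, which runs from lab to Antp. The window of 360 kb held 172 of the 81028 peaks of the series, and merging peaks that overlapped by at least 1 bp gave 26 regions, numbered 1 to 26 from the lab side. Chromatin immunoprecipitation and sequencing (ChIP-seq) had been done in Kc167, a cell line derived from Drosophila embryos, with 1 library for each of 4 proteins (CP190, Su(Hw), dCTCF and BEAF-32, the last with an antibody named for BEAF32B) at each of 3 times. Cells were untreated (0 h) or had received 5e-07 M 20-hydroxyecdysone, the steroid hormone of moulting, for 3 or 48 h. All cells were of the same line, and the labels name no vehicle for the untreated cells. No protein and time had a second library, so no difference between times could be tested, and every share below is a count in single lists. Placement of the regions in genes is not given, since an annotation of Release 5 was not used here.

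Hox genes encode homeodomain transcription factors that give the segments of the body their identity, and their order along the chromosome follows the order of the body parts in which they act. In the Release 6 gene table of RefSeq, all 8 named genes lie between lab and Antp in the order lab, pb, zen, bcd, Dfd, Scr, ftz and Antp, among 43 genes in all. The homeotic genes are lab, pb, Dfd and Scr, which act in the head (Scr also in the first segment of the thorax), and Antp, which acts in the thorax. The others come from Hox ancestors but have taken on different work: zen acts in dorsal tissues of the embryo, bcd encodes the maternal factor that sets up the anterior end, and ftz is a pair-rule segmentation gene. Where they are not expressed, Hox genes are held silent by Polycomb group proteins. Insulator proteins mark sites that can separate an enhancer from a promoter or one chromatin domain from the next. dCTCF (the fly counterpart of vertebrate CTCF), Su(Hw) (the protein that binds the gypsy insulator) and BEAF-32 (a boundary element factor) bind DNA directly, and CP190, which has zinc fingers of its own, is recruited through them.

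Each peak carries the authors' own score, for which no definition was found in the labels or files. Raw scores are given as deposited, and strength is read from the percentile within the peak's own list: the share of that list with a lower score, with tied peaks placed at the middle of the tie. Many peaks stood at 3100, treated here as a ceiling together with the few above it. A ceiling peak lay at percentile 91.7, 89.7 and 90.9 of the CP190 lists at 0, 3 and 48 h, and between 78.9 and 88.4 in the lists of the other proteins. The lists held between 5037 and 8514 peaks and no read counts, so the depth of the libraries is unknown.

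Most CP190 peaks of the window were among the strongest of their lists. The lists held 17 (0 h), 18 (3 h) and 17 (48 h) CP190 peaks there, and 12 of them reached the score ceiling at each time. That is 70.6% at 0 h (95% Wilson interval 46.9 to 86.7), 66.7% at 3 h (43.7 to 83.7) and 70.6% at 48 h (46.9 to 86.7) in the window, against 18.7%, 22.7% and 21% of the CP190 peaks of the whole arm. Such intervals, here and below, cover counting error only. They take the peaks of 1 library as independent, which neighbouring peaks need not be, and are no test against the arm. The arm was divided into 76 windows of 360 kb laid end to end from the complex outward. The other 75 windows held at most 10 CP190 peaks at the ceiling at any time, with a median of 3 at 0 h, 4 at 3 h and 3 at 48 h. Their highest ceiling share was 58.8% at 0 h and 60% at 3 and 48 h. The window just before the complex had 1, 3 and 3 ceiling peaks, and the one just after had 3, 4 and 4. Ranking windows by their ceiling CP190 peaks was not planned. The planned measure was the number of CP190 peaks of any score. By that number, in contrast, the complex was near the middle of the arm. The median of the other windows was 17 at 0 h, 19 at 3 h and 18 at 48 h.

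**Figure D1:**
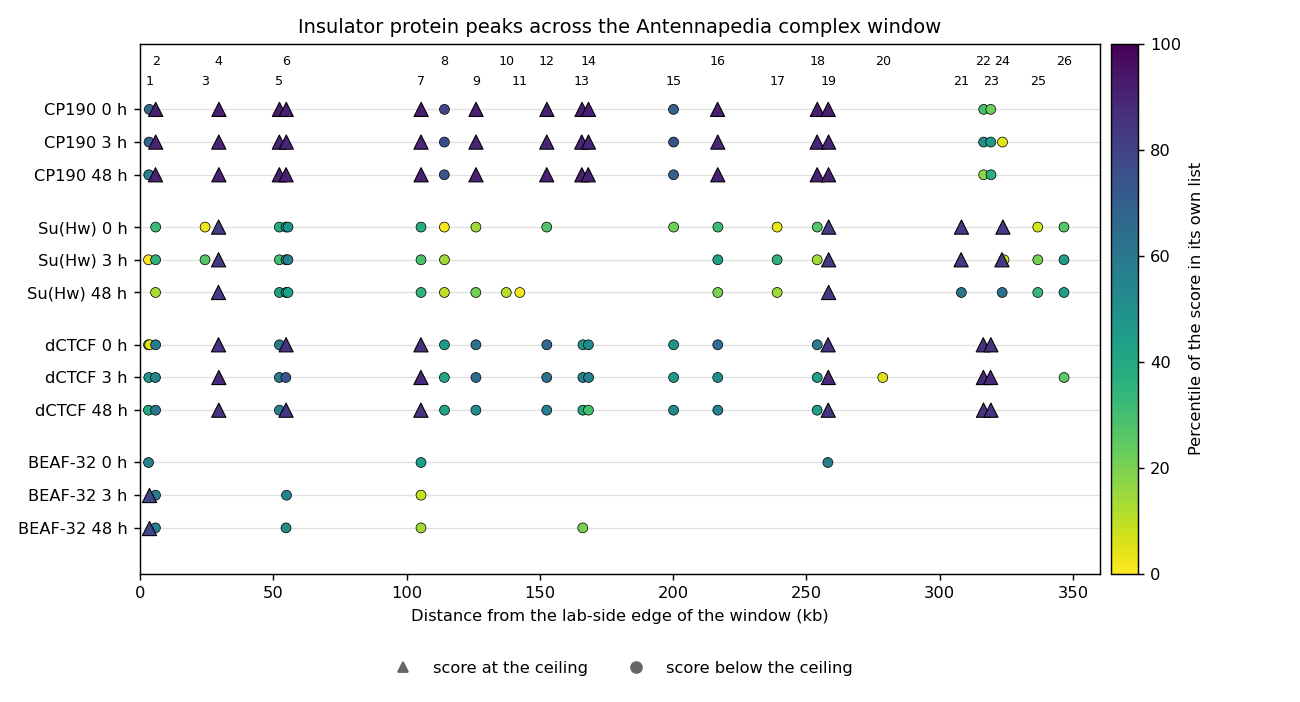
Peaks of the 4 proteins at 0, 3 and 48 h (rows) across the window, placed by their centre as distance from the lab-side edge in kb. Colour is the percentile of the score in its own list, triangles are peaks at the ceiling and the numbers above are the 26 regions; 12 CP190 peaks per list are at the ceiling, all of them from region 2 to region 19.

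The same 12 regions held the ceiling CP190 peaks at all 3 times. They were region 2 (3R:2485222-2486510), region 4 (3R:2508882-2510165), regions 5 and 6 (3R:2531654-2532878 and 3R:2534081-2535803) and region 7 (3R:2584736-2586098). Further on came region 9 (3R:2605349-2606698), region 12 (3R:2631894-2633273), regions 13 and 14 (3R:2644566-2646877 and 3R:2647537-2648924) and region 16 (3R:2696078-2697309). The last were regions 18 and 19 (3R:2733359-2734634 and 3R:2737357-2739161). Region 13 had the widest CP190 peaks of the window, with 2072 bp at 0 h, 2284 bp at 3 h and 2278 bp at 48 h, where the median CP190 peak of the window was 1216, 1258 and 1158 bp wide and that of the arm 1003, 1102 and 1060 bp.

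Below the ceiling, CP190 had 5 further regions with a peak at every time. Region 8 (3R:2593563-2594742) scored 2296 at 0 h, 2576 at 3 h and 1867 at 48 h, which is percentile 79.1, 76.6 and 73.7. Region 15 (3R:2679598-2680738) scored 1171, 2415 and 1390, percentile 69.0, 75.7 and 69.1. Region 1, the first of the window (3R:2482633-2484188), scored 1031, 1616 and 774, percentile 66.6, 68.6 and 57.9. These 3 lay above the middle of their lists throughout. The weakest steady CP190 peaks were the neighbours near the Antp side, region 22 (3R:2795862-2797009) and region 23 (3R:2798498-2799718). Region 22 was at percentile 29.7 at 0 h, 52.7 at 3 h and 17.3 at 48 h. Region 23 was at percentile 21.9, 45.2 and 36.6. Both stood highest in the 3 h list.

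CP190 had peaks in nearly the same regions at the 3 times, though changes in strength cannot show among peaks tied at the ceiling. Of its 18 regions in the window, 17 had a peak at 0, 3 and 48 h, where 75.7% of CP190 regions of the arm did. None of the 18 had a 0 h peak and lacked a later one. On the arm 8.62% did, a share of all CP190 regions, with or without a 0 h peak. In the window 12 of the regions were at the ceiling, while the arm shares cover regions of all strengths. The 1 region without a 0 h peak (15.6% of the regions of the arm) was region 24, with a peak at 3 h only, score 120, percentile 4.66, near the bottom of its list.

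The CP190 regions were unevenly spaced, as were those of the arm. Gaps ran from 660 to 56794 bp in the window and from 17 to 162697 bp on the arm. The median gap between neighbours was 11293 bp in the window and 8832 bp on the arm, and of the 17 gaps in the window 5 were under 3 kb, where 22.5% of the gaps of the arm were. The 5 close pairs were regions 1 and 2, 5 and 6, 13 and 14, 18 and 19, and 22 and 23, with gaps of 1034, 1203, 660, 2796 and 1763 bp. The limit of 3 kb was chosen after the gaps were seen, and with so few gaps the window cannot be set apart from the arm. The longest stretches with no peak of any list were 48.9 kb between regions 6 and 7 (3R:2535804-2584735), 30.7 kb between regions 14 and 15 (3R:2648925-2679597) and 28.6 kb between regions 20 and 21 (3R:2758779-2787405). Of the other 75 windows of the arm, 17 had a longer empty stretch, and their median was 36259 bp.

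dCTCF peaks were numerous in the window. The lists held 18 (0 h), 19 (3 h) and 17 (48 h) of them, where the other windows of the arm had a median of 11, 11 and 9. Only 7, 5 and 5 of the other 75 windows held more. Its ceiling share was close to that of the arm: 6 of 18 peaks at 0 h against 28% of the arm, 5 of 19 at 3 h against 22.1%, and 6 of 17 at 48 h against 31.5%. Its median percentile in the window was 61.5 at 0 h, 57.1 at 3 h and 58.0 at 48 h, against 47.2, 48.0 and 46.5 on the arm, and 5 of 18, 6 of 19 and 5 of 17 peaks were in the lower 50% of their lists. The window thus held many dCTCF peaks, with few weak ones and a ceiling share near that of the arm.

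**Figure D2:**
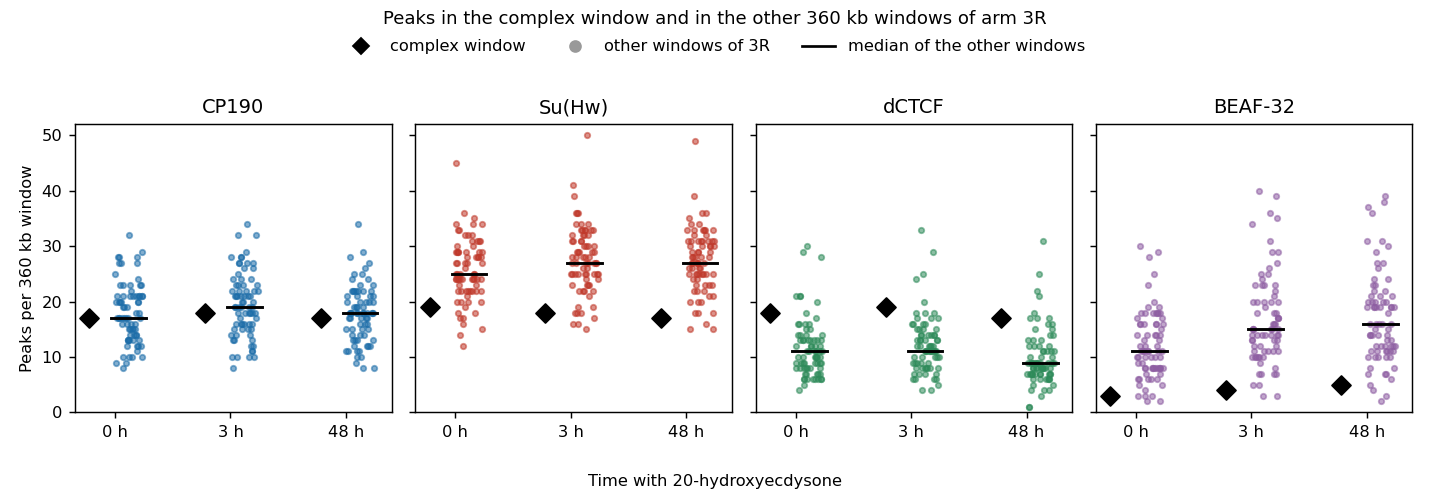
Peaks per window of 360 kb for each protein at 0, 3 and 48 h. The diamond is the complex window, points are the other 75 windows of arm 3R, spread sideways for legibility, and the bar is their median; the diamond is near the bar for CP190, above it for dCTCF and far below it for BEAF-32.

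The ceiling dCTCF peaks lay in regions 4, 7, 19, 22 and 23 at all 3 times. Region 6 was at the ceiling at 0 and 48 h and scored 2245 at 3 h (percentile 73.2). Among the others, region 12 scored 1722 at 0 h, 914 at 3 h and 1430 at 48 h, percentile 65.3, 63.1 and 58.1. Region 16 scored 1592, 445 and 1198, percentile 64.1, 51.9 and 55.1, and stood highest at 0 h. Region 2 scored 1059, 516 and 1694, percentile 58.8, 54.9 and 60.6. Raw scores were lower in the 3 h list as a whole, with list medians of 639 at 0 h, 409 at 3 h and 871 at 48 h, so percentiles are given beside them. The widest spread of dCTCF percentiles was in region 14, with 52.1 at 0 h, 57.1 at 3 h and 29.6 at 48 h. Across the 17 regions present at all times, Spearman's rho of the percentiles was 0.89 between 3 and 0 h, 0.93 between 48 and 0 h and 0.81 between 48 and 3 h, a description in which ceiling peaks are tied.

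All 17 dCTCF regions with a 0 h peak also had a peak at 3 and 48 h, so that 17 of 19 were present at all 3 times, where 59.6% of the dCTCF regions of the arm were. None of the 19 had a 0 h peak and lacked a later one. On the arm 20% did, a share of all dCTCF regions, with or without a 0 h peak. The 2 regions without a 0 h peak (20.4% of the regions of the arm) had weak peaks at 3 h only. Region 20, alone in the window in having dCTCF and no other protein (3R:2758468-2758778), scored 111 (percentile 5.37). Region 26, the last of the window (3R:2826183-2827055), scored 180 (percentile 25.8) and had Su(Hw) at all times.

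CP190 and dCTCF lay together at every steady CP190 site. All 17 CP190 peaks at 0 h overlapped a dCTCF peak (95% Wilson interval 81.6 to 100%), as did 17 of 18 at 3 h and 17 of 17 at 48 h, where the shares on the arm were 46.6%, 42.4% and 39.2%. In the other 75 windows the highest share was 75% at 0 h and 80% at 3 and 48 h. Comparing windows by this share was not planned. Strong CP190 peaks are usually on dCTCF anywhere on the arm: of the ceiling CP190 peaks, 12 of 12 in the window overlapped dCTCF at each time, against 90.7% of the arm at 0 h, 84.5% at 3 h and 82.1% at 48 h. For those peaks the window was close to the arm. Among CP190 peaks below the ceiling, 5 of 5 overlapped dCTCF at 0 h, 5 of 6 at 3 h and 5 of 5 at 48 h, against 36.5%, 30.1% and 27.8% on the arm. These below-ceiling peaks were not matched for strength with those of the arm. At 0 h, regions 8, 15 and 1 were at percentile 79.1, 69.0 and 66.6, and regions 22 and 23 at 29.7 and 21.9. The 1 CP190 peak without dCTCF was that of region 24 at 3 h. Turned round, 18 of 18 dCTCF peaks at 0 h, 17 of 19 at 3 h and 17 of 17 at 48 h lay on CP190, against 76.3%, 71.2% and 71.8% on the arm. The centres of overlapping CP190 and dCTCF peaks were a median of 48.5 bp apart at 0 h, 33.5 bp at 3 h and 31.0 bp at 48 h in the window, and 59.0, 59.5 and 54.5 bp on the arm.

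**Figure D3:**
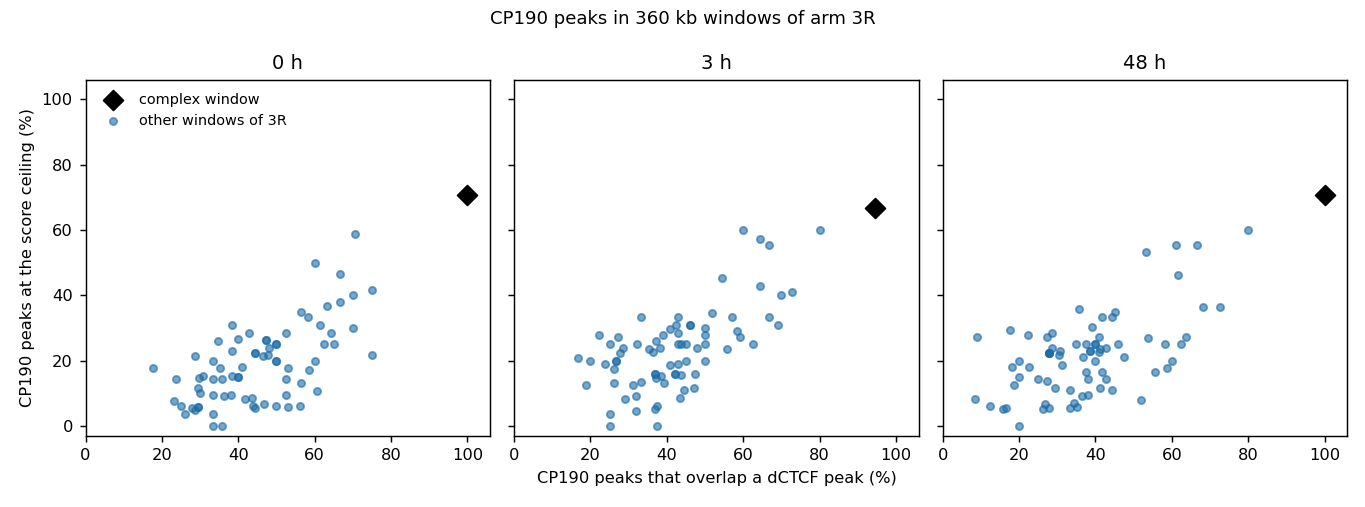
Share of CP190 peaks that overlap a dCTCF peak (horizontal, %) and share of CP190 peaks at the score ceiling (vertical, %) in each 360 kb window of arm 3R at 0, 3 and 48 h. The diamond, the complex window, lies beyond the other 75 windows on both axes in each panel, at 100% and 70.6% at 0 h. The highest ceiling share of the other windows was 58.8% at 0 h and 60% at 3 and 48 h. Comparing windows by either share was not planned.

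CP190 and dCTCF differed in strength from region to region. In regions 4, 7 and 19, both proteins were at the ceiling at every time. In regions 13 and 14, CP190 was at the ceiling while dCTCF was near the middle of its lists or lower, at percentile 48.8 and 52.1 at 0 h, 55.4 and 57.1 at 3 h, and 39.5 and 29.6 at 48 h. Regions 22 and 23 had the reverse arrangement, with dCTCF at the ceiling at every time and CP190 at the percentiles given above.

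Su(Hw) was sparse and mostly weak in the window. The lists held 19 (0 h), 18 (3 h) and 17 (48 h) of its peaks, where the median of the other windows was 25, 27 and 27. More peaks were found in 66 of the other 75 windows at 0 h, in 68 at 3 h and in 72 at 48 h. The ceiling held 4 of 19 peaks at 0 h against 36.1% on the arm, 4 of 18 at 3 h against 35.6%, and 2 of 17 at 48 h against 35.7%. The median percentile of its peaks in the window was 31.7, 36.0 and 35.3, against 50.9, 50.2 and 50.7 on the arm.

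The strong Su(Hw) sites were 4. Regions 4 and 19 were at the ceiling at 0, 3 and 48 h and shared their place with ceiling peaks of CP190 and dCTCF. Region 21 (3R:2787406-2788635), with no other protein at any time, was at the ceiling at 0 h, scored 3211 at 3 h and 2187 at 48 h (percentile 61.7). Region 24 (3R:2802814-2804363) was at the ceiling at 0 h, scored 3157 at 3 h, with a second peak of score 128 beside it, and 2536 at 48 h (percentile 63.6). Regions 21 and 24 were the strong Su(Hw) sites without steady CP190, and the 48 h list was the one where they lay below the ceiling.

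Su(Hw) lay on part of the CP190 peaks, regions 4 and 19 included. The share was near that of the arm at 0 and 3 h and below it at 48 h. Of the CP190 peaks, 12 of 17 overlapped Su(Hw) at 0 h against 66% on the arm, 11 of 18 at 3 h against 66.1%, and 9 of 17 at 48 h against 67.5%. Among ceiling CP190 peaks, 10 of 12 did at 0 h, 8 of 12 at 3 h and 8 of 12 at 48 h, against 92.7%, 87.1% and 89.7% on the arm. Su(Hw) peaks on ceiling CP190 peaks had a median percentile of 37.8 at 0 h, 43.5 at 3 h and 42.5 at 48 h in the window, against 46.7, 48.0 and 49.3 on the arm. Region 7 is an example, with Su(Hw) at percentile 37.8, 29.0 and 35.3 under ceiling peaks of CP190 and dCTCF. Region 6 held a pair of Su(Hw) peaks at every time, at percentile 47.2 and 48.1 at 0 h, 46.6 and 56.5 at 3 h, and 51.0 and 42.5 at 48 h, so the stronger of the pair at 48 h was not the stronger at 0 or 3 h. Regions 13, 14, 22 and 23 had no Su(Hw) peak in any list. Of the Su(Hw) peaks, 13 of 19 lay on CP190 at 0 h, 13 of 18 at 3 h and 10 of 17 at 48 h, against 48.4%, 50.4% and 47.2% on the arm.

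The presence of Su(Hw) peaks varied more between the lists than that of CP190 or dCTCF peaks. Of 22 Su(Hw) regions, 14 had a peak at all 3 times, where 69.3% of the arm's regions did. Another 5 had a 0 h peak but lacked one later (10.7% on the arm), and 3 had no 0 h peak (20% on the arm). Region 12 (score 259, percentile 27.8) and region 15 (score 206, percentile 21.7) had Su(Hw) at 0 h only. Region 18 had it at 0 and 3 h, with scores of 254 and 157 (percentile 27.2 and 13.7), and region 3 (3R:2504123-2504639) at 0 and 3 h, with scores of 109 and 248 (percentile 2.59 and 26.5). Region 9 had it at 0 and 48 h, with scores of 161 and 203 (percentile 14.3 and 21.2). Region 1 had a 3 h peak of score 101, and regions 10 and 11 (3R:2617142-2617662 and 3R:2622236-2622729) had 48 h peaks of score 142 and 105. All of these ranked in the lower 30% of their lists. Region 17 (3R:2718732-2719265) and region 25 (3R:2816526-2817055) had Su(Hw) alone at all times, at percentile 3.46, 36.2 and 14.4 in region 17 and 6.52, 21.3 and 32.9 in region 25.

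BEAF-32 was nearly absent. The lists held 3 (0 h), 4 (3 h) and 5 (48 h) of its peaks, where the other windows had a median of 11, 15 and 16. Fewer peaks were found in 2 of the other 75 windows at 0 h, in 2 at 3 h and in 3 at 48 h. No BEAF-32 peak was at the ceiling at 0 h (38.4% on the arm), and 1 was at 3 h (49.1% on the arm) and at 48 h (48.2% on the arm). Of the 26 regions, 6 held BEAF-32 at some time, where 44.2% of the regions of the arm did. All 3, 4 and 5 BEAF-32 peaks lay on CP190, against 71.3%, 68.2% and 58.7% on the arm.

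From the side of CP190, BEAF-32 was found at 3 of 17 peaks at 0 h (95% Wilson interval 6.19 to 41.0%), 4 of 18 at 3 h (9.0 to 45.2%) and 5 of 17 at 48 h (13.3 to 53.1%), against 48.2%, 57% and 53.8% on the arm. At ceiling CP190 peaks it was found at 2 of 12, 3 of 12 and 4 of 12, against 59.8% at 0 h, 59.8% at 3 h and 54.5% at 48 h on the arm. Of CP190 peaks on dCTCF, 14 of 17 had no BEAF-32 peak at 0 h, 13 of 17 at 3 h and 12 of 17 at 48 h, against 31.4%, 26.6% and 25.7% on the arm.

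The 6 BEAF-32 sites differed in the times at which they were listed. Region 1 scored 1456 at 0 h (percentile 57.0) and was at the ceiling at 3 and 48 h. Region 2 had no peak at 0 h and scored 2992 at 3 h and 2791 at 48 h (percentile 58.6 and 56.6). Region 6 was like region 2, with no peak at 0 h and scores of 2244 and 2049 (percentile 54.9 and 51.7). Region 7 had its best score at 0 h, with 734, 150 and 183 (percentile 44.7, 7.96 and 14.0). Region 19 had a peak at 0 h only, score 1475 (percentile 57.2), and region 13 at 48 h only, score 252 (percentile 20.0). In the treated lists the best BEAF-32 sites were thus regions 1, 2 and 6, the first 54.9 kb of the window. In counts, 2 of 6 regions had BEAF-32 at all 3 times (57.2% on the arm), 3 had no 0 h peak (36.7% on the arm) and 1 had a 0 h peak but lacked a later one (6.1% on the arm). The share without a 0 h peak on the arm was higher for BEAF-32 than for the other proteins, and with so few regions the window cannot be set apart from it.

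**Figure D4:**
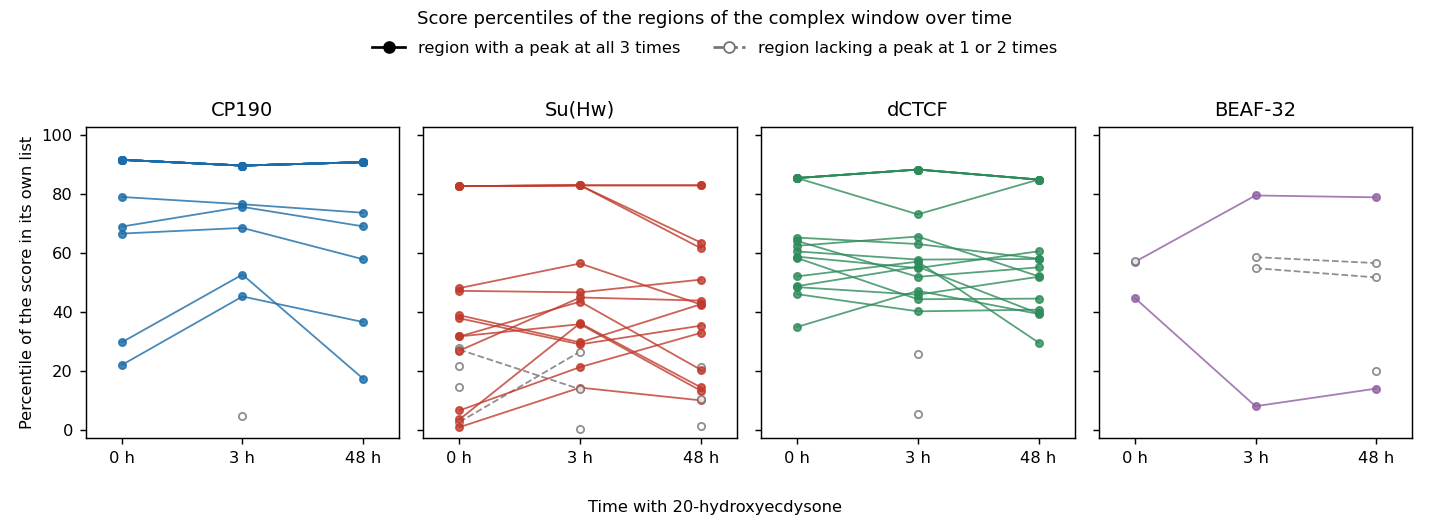
Percentile of the score in its own list at 0, 3 and 48 h for each region of each protein in the window, the strongest peak where a region has several. Solid lines are regions with a peak at all 3 times and open circles, dashed where 2 neighbouring times are joined, are regions lacking a peak at 1 or 2 times; the top line of CP190 holds 12 regions at the ceiling, and the incomplete Su(Hw) regions lie below percentile 30.

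The combinations of proteins followed from these patterns. Over the 3 times, 8 of the 26 regions held CP190, Su(Hw) and dCTCF without BEAF-32, a combination found in 3.94% of the 3197 regions of the arm. CP190 and dCTCF occurred together, with or without others, in 17 of 26 regions, where 23.7% of the regions of the arm had them. All 4 proteins were found in 5 regions (15.5% of the arm), namely 1, 2, 6, 7 and 19, and 1 protein in 7 regions (43.8% of the arm). CP190 with dCTCF alone formed regions 14, 22 and 23, and with BEAF-32 added region 13. No region held BEAF-32 alone or CP190 with BEAF-32 alone, which made up 8.60% and 8.13% of the regions of the arm. In single lists, 2 of 23 regions had all 4 proteins at 0 h (regions 7 and 19), against 12.4% on the arm. At 3 h, 4 of 24 did (regions 1, 2, 6 and 7), against 12.2%. At 48 h, 3 of 24 did (regions 2, 6 and 7), against 10.6%. These shares were near those of the arm. Region 7 was the one with all 4 at each time. At 0 h, CP190, Su(Hw) and dCTCF without BEAF-32 formed 10 of 23 regions, and 6 of 24 at both later times. The arm shares were 5.58%, 4.38% and 3.73%. CP190 with dCTCF alone formed 4, 7 and 6 regions, against 1.65%, 1.41% and 0.891% on the arm.

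**Figure D5:**
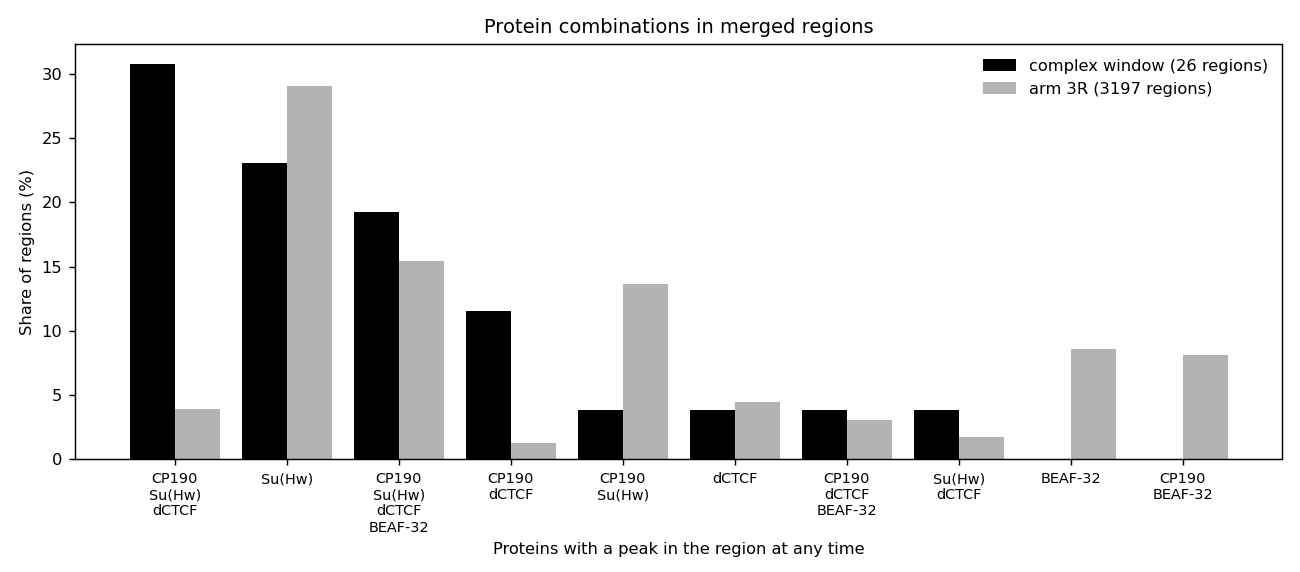
Share of regions (vertical, %) with each combination of proteins, counting a protein with a peak at any time, in the 26 regions of the complex window (black) and the 3197 regions of arm 3R (grey). Combinations found in the window, or in over 5% of the arm, are shown; CP190 with Su(Hw) and dCTCF leads the window with 30.8%, against 3.94% of the arm.

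Strong CP190 peaks lay in the larger part of the window on the lab side, up to a border at region 19 that was drawn after the values were seen. From region 1 to region 19, up to 258 kb from the lab-side edge, 15 regions had CP190 at all times, and 12 of them were at the ceiling. Beyond region 19, no list had a ceiling CP190 peak. On the arm, the other windows of 360 kb held a median of 3 ceiling CP190 peaks at 0 h and some held 0. The stretch beyond region 19 is much shorter than these windows. Its lack of ceiling CP190 peaks therefore does not set it apart from the arm. That end held the dCTCF peaks of regions 22 and 23 and the Su(Hw) peaks of regions 21 and 24 as its strongest sites. No BEAF-32 peak lay beyond region 19. The last region, 26, held Su(Hw) with scores of 250 at 0 h, 577 at 3 h and 559 at 48 h (percentile 26.8, 44.9 and 43.9). A distance along the window is not a place in a gene, and which of the Hox genes each stretch covers was not analysed here.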

How the data were processed

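Per the labels, ChIP DNA from formaldehyde-fixed Kc167 cells was sonicated and sequenced. Per the submitters' processing notes, the aligner was Bowtie 0.12.5. The authors deposited 1 peak list per ChIP library, with a score per peak, and the names begin with MACS, a peak caller, per the files. Caller settings, control and build were not found in the labels; sequence names are those of Release 5. Coordinates are printed as deposited. The 2 input libraries, both of untreated cells (0 h), were not analysed here, and the samples include no input of treated cells. Scores of 3100 or more were tied.

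Peaks overlapping by 1 bp were merged, over all 12 lists or over the 3 lists of a protein. Background shares cover the whole arm 3R, complex included. The arm was tiled completely, so its 76 windows and the 44 measures ranked over them are descriptions and no test was run. The planned rule named regions with all 4 proteins, with a peak at or above percentile 90, the 5 strongest lacking a peak at some time, the first and last region and the 3 longest empty stretches; every other region is named too, chosen after its values were seen. Members and lists were chosen with earlier results of these data known. Planned work on gene positions and motifs was not run. Python 3.11.15, numpy 2.4.6, pandas 2.3.3, scipy 1.17.1 and matplotlib 3.10.9 were used, and merging was tested on simulated lists.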

Additional observations from a re-analysis of the deposited data

Results flagged for a closer look

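The number of peaks in the window differed by at most 2 between times, with opposite signs among the proteins. CP190 had 17 peaks at both 0 and 48 h. At 3 h minus 0 h the difference was 1 for CP190, 1 for dCTCF and 1 for BEAF-32, against -1 for Su(Hw). At 48 h minus 0 h the difference was 2 for BEAF-32, against -2 for Su(Hw) and -1 for dCTCF. The dCTCF value comes from region 1, which held 2 peaks at 0 h and 1 at 48 h. On the whole arm, at 0, 3 and 48 h, CP190 had 1387, 1505 and 1381 peaks, Su(Hw) 1965, 2107 and 2092, dCTCF 908, 955 and 781, and BEAF-32 942, 1298 and 1310. Each list is a single library, so no test of these differences was made.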

How the results depend on the processing

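Of 99 alternative values for 23 results, 79 stayed within 1.5 times the reported value. Settings that kept all peaks changed little: 14 of 14 stayed with 50% overlap, 12 of 12 with merging up to 200 bp, 4 of 4 with peak centres and 6 of 6 with shifted windows. Settings that removed peaks changed more: 15 of 18 stayed with scores of 200 or more, 13 of 22 with the top 50% and 14 of 22 with equal length. With scores of 200 or more, Su(Hw) had 9 regions at all times and BEAF-32 1, and dCTCF had 0 without a 0 h peak. With the top 50% of each list, Su(Hw) had 14 peaks over the 3 times and 4 regions at all times. There were 11 such regions for dCTCF and 1 for BEAF-32. In this setting 2 regions held all 4 proteins and 4 held 1 protein. The window ranked 7 for CP190 and 2 for dCTCF peak number at 0 h, against 37 and 8 in the whole lists. The share of CP190 peaks on a dCTCF peak at 0 h fell to 73.3%, against 100% in the whole lists. By that share the window ranked 2, against 1. With lists of equal length (3333 peaks on the main arms), Su(Hw) had 12 peaks, 4 regions at all times and 0 without a 0 h peak; dCTCF had 1 without a 0 h peak and BEAF-32 1 at all times; 1 region held all 4 proteins and 4 held 1 protein; the CP190 rank was 9. The cause was not tested, beyond the fewer peaks in these settings. The rank by ceiling CP190 peaks stayed at 1 with windows shifted by 180 kb and with the top 25% of the list in place of the ceiling, alternatives added after the data were seen. No paired analysis was possible because each protein and time had 1 library, and nothing was left out in turn for the same reason. Depth is unknown, so weak peaks missing from a list cannot be told apart from absent binding.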
